A study of Macaca mulatta with 2 samples.

Results

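The genes described here encode the T cell receptor complex and the proteins that act next to it. The list was set by gene name, with earlier results of these data known. Of the 45 listed genes, 44 were matched to a feature of the deposited table, which holds 35432 genes, and all 44 were among the 14459 genes kept. LAT was matched through a table of gene names, and TXK was not matched. The antigen receptor of a T cell has no enzyme of its own. Its CD3 chains (CD3D, CD3E, CD3G and CD247) are phosphorylated by the kinases LCK and FYN, the kinase ZAP70 docks on them and marks the scaffolds LAT and LCP2, and these collect enzymes that open the calcium, diacylglycerol and RAS routes to NFAT, NF-kB and AP-1. Phosphatases, ubiquitin ligases, diacylglycerol kinases and the surface receptors CD5 and CD6 set how far a signal travels.

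All cells came from 1 healthy rhesus monkey aged 6 years, were untreated, and were drawn from blood. CD4+CD8+ double-positive (DP) T cells were isolated with magnetic beads against CD4 and then CD8. Messages were read in a 5' droplet library and the CD4 and CD8 antibody tags in another, from the same cells, so the 2 libraries are 1 biological sample. With 1 sample there was no replicate and no test. Levels are a gene's summed unique molecular identifiers (UMIs) divided by all gene UMIs of the group, on the CPM scale, ratios are log2 of one CPM over another, and 95% intervals in square brackets are exact and cover counting error only.

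Cells with at least 1 CD3E UMI (CD3E+ cells) numbered 7311 of the 7601 kept, with a median of 3656 UMIs per cell and 30113654 UMIs in all. They were placed in a marker group when they held raw UMIs of exactly 1 of 7 genes, with at least 3 UMIs required for GZMB, a granule protease whose message is abundant, and 1 for the others. The GZMB group had 2416 cells and the CCR7 group 1526; CCR7 is a homing receptor of naive T cells. The groups for EOMES, TRAV10, FOXP3, CCR9 and CXCL13 had 121, 109, 42, 234 and 20 cells, while 1994 cells held none of the markers and 849 held several. A list of naive cell genes summed to 1094 CPM in the CCR7 group, of which CCR7 itself gave 430 CPM, and to 40.9 CPM in the GZMB group. A list of cytotoxic genes summed to 4234 CPM in the GZMB group, of which GZMB gave 3803 CPM, and to 24.2 CPM in the CCR7 group. Median depth was 3221 UMIs per cell in the GZMB group and 4282.5 in the CCR7 group, and ribosomal genes took 21.6% and 33.6% of UMIs. The list of NK cell genes (7 of 7 measured) summed to 2951 CPM in the GZMB group with NCAM1 at 0, and to 260 CPM in the CCR7 group with FCER1G at 0; cytotoxic T cells also express NKG7 and GNLY of that list. As a background for T cell genes, 118 cells held at least 3 UMIs of MS4A1, CD79A and CD79B together and no CD3E UMI (B gene cells, median 4397 UMIs).

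Most members were far higher in CD3E+ cells than in B gene cells. CD3D stood at 872 CPM against 66.5 CPM, CD3G at 419 against 17.5 CPM, and CD247, the zeta chain, at 201 against 1.75 CPM. LCK was measured at 365 against 22.8 CPM, ZAP70 at 187 against 5.3 CPM and LAT at 472 against 1.75 CPM. FYN, CD2, CD5, THEMIS, UBASH3A and GRAP2 had no UMI in B gene cells, where the exact upper limit for a count of 0 is 6.46 CPM. Other members are shared with B cells or are higher there: PTPN6, the phosphatase SHP-1, was at 88.6 CPM in CD3E+ cells and 368 in B gene cells, CSK at 133 and 354, GRB2 at 128 and 317, and BCL10 at 41.0 and 140 CPM. DUSP2, a nuclear phosphatase of MAP kinases, showed the widest gap of this kind, at 294 CPM in CD3E+ cells and 6338 CPM in B gene cells. UMIs were counted at message 5' ends and not per length, so levels of different genes are not set against each other.

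Across the 7 marker groups, 16 of the 44 members were highest in the GZMB group and 12 in the CXCL13 group, 4 each in the EOMES, FOXP3 and CCR9 groups, 3 in the TRAV10 group and 1 in the CCR7 group. The member highest in the CCR7 group was DUSP2, at 448 CPM. Without cells holding an MS4A1, CD79A or CD79B UMI, DUSP2 was at 248 CPM there. It then stood higher in the CXCL13 (323 CPM), TRAV10 (314 CPM), EOMES (284 CPM) and FOXP3 (255 CPM) groups. The CXCL13 group of 20 cells was also lowest for 6 members. Many of its 12 highest members rested on few UMIs, such as 5 for GRAP2 and 8 for NFATC1. The same order was not taken over all genes. For most members the intervals of the 2 highest groups met. They stood apart for LCK (533 CPM in the GZMB group, 401 in the EOMES group), for UBASH3A (highest in the GZMB group), for SOS1 (highest in the CCR9 group) and for PTPN6 (highest in the CXCL13 group, from 15 UMIs in 20 cells).

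**Figure D1:**
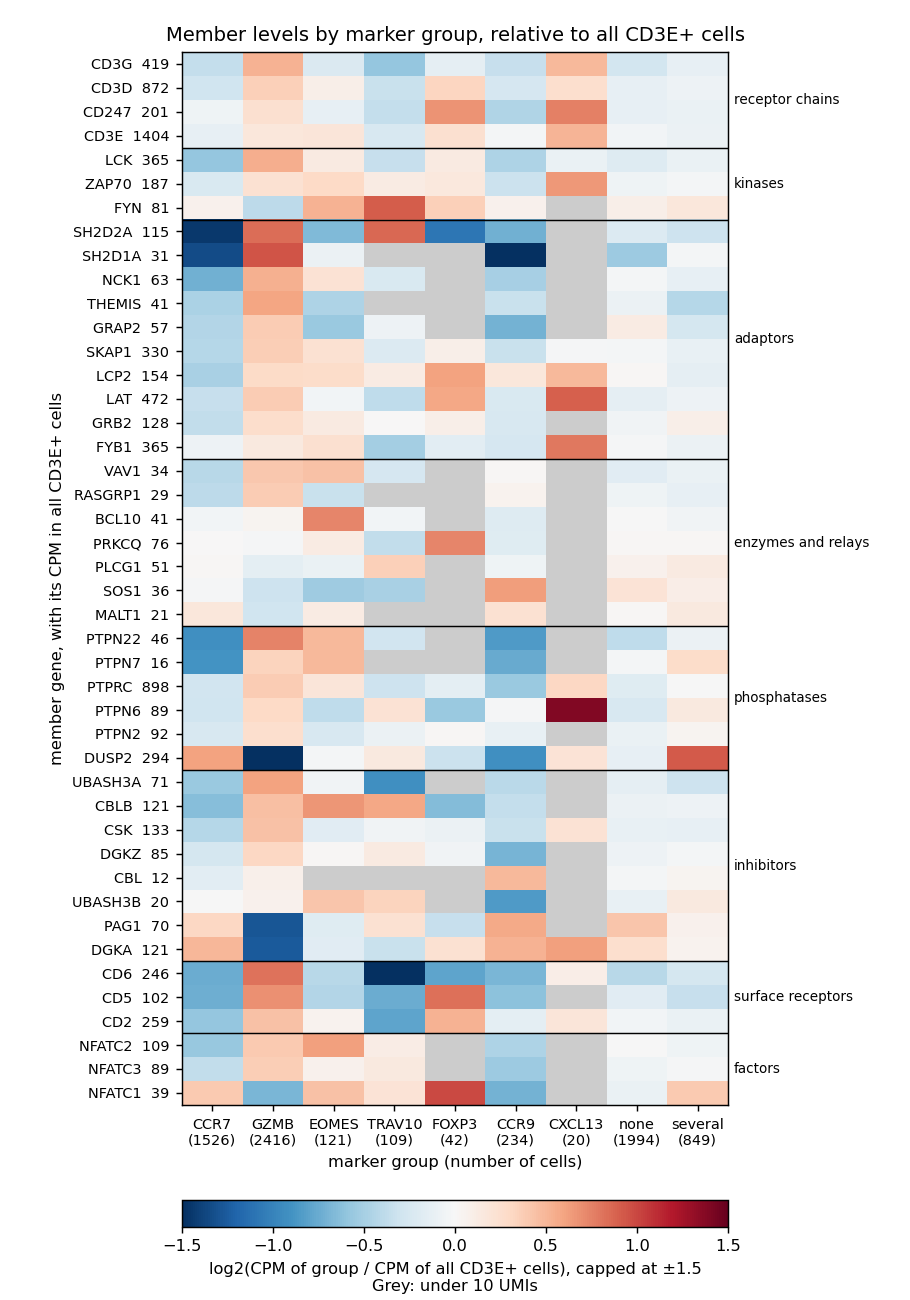
Each cell of the map gives the log2 ratio of a member's CPM in a marker group (columns, with the number of cells) to its CPM in all CD3E+ cells (printed beside the gene, rows ordered by role), with the colour capped at 1.5 in either direction and grey for under 10 UMIs. The GZMB column is red for most members and most strongly blue for DUSP2, PAG1, DGKA and NFATC1, while the CCR7 column is mostly blue.

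The GZMB group was compared with the CCR7 group to ask how the receptor machinery differs between cells with GZMB and cells with CCR7 in this DP sort. Most members were higher in the GZMB group, led by the adaptors SH2D2A and SH2D1A and the receptors CD6 and CD5, while DUSP2, DGKA, PAG1 and NFATC1 were lower. A log2 ratio of at least 0.5 in size was taken as past the fold, among genes expected to have at least 20 UMIs in the smaller group. All 44 members met that minimum: 28 were past the fold upward, against 35.6% of all 9174 genes tested, 4 were past it downward, against 11.6% of all genes, and 12 were within it. Their median log2 ratio was 0.69, against 0.30 for all genes tested. Summed without CD3E, whose UMIs chose the cells, the members held 8786 CPM in the GZMB group and 5857 CPM in the CCR7 group, a log2 ratio of 0.59 [0.57, 0.60]. Ratios taken relative to the median shift of 0.30 leave 17 members past the fold upward and 7 downward, against 38.8% of all genes in either direction. FYN (-0.76), SOS1 (-0.59) and MALT1 (-0.77) are then lower. The 11 members that fall within the fold are CD3D, LAT, LCP2, GRB2, SKAP1, RASGRP1, PTPRC, PTPN6, PTPN2, DGKZ and NFATC3. Without ribosomal and mitochondrial genes the counts were 20 and 7, for which no share of all genes is given here.

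Of the receptor chains, CD3G was at 602 CPM in the GZMB group and 326 CPM in the CCR7 group, a log2 ratio of 0.88 [0.81, 0.95]. CD3D stood at 1115 and 712 CPM (0.65 [0.60, 0.70]). CD247 (238 and 192 CPM, 0.31) and CD3E (1580 and 1286 CPM, 0.30) stood close to the median of all genes, but CD3E UMIs chose the cells of both groups. Leaving CD3E aside, the chains of 1 complex thus had unequal ratios. Among the kinases, LCK was at 533 CPM and 244 CPM, a ratio of 1.13 [1.05, 1.21], or 1.88 and 1.12 UMIs per cell. FYN, the other SRC-family kinase of T cells, went the other way at 61.5 and 84.4 CPM, with a ratio of -0.46 [-0.63, -0.29] that lies within the fold. ZAP70, at 219 and 159 CPM, was within the fold too (0.46).

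Of the adaptors, 9 of 10 were past the fold upward (all genes: 35.6%), with a median of 0.81. Relative to the median of all genes, LAT, LCP2, SKAP1 and GRB2 fell within the fold. SH2D2A, which encodes the LCK-binding adaptor TSAd, was at 207 CPM in the GZMB group and 42.2 CPM in the CCR7 group, from 1763 and 295 UMIs, a ratio of 2.30 [2.12, 2.48]. SH2D1A, which encodes SAP, the adaptor of SLAM receptors, stood at 60.3 and 12.4 CPM from 513 and 87 UMIs (2.28 [1.95, 2.62]). These 2 SH2-domain adaptors had the largest upward ratios of all members. NCK1, a link to actin, was at 91.0 and 38.2 CPM (1.25), and THEMIS, needed in thymic selection, at 61.3 and 29.5 CPM (1.06). The scaffolds LAT (613 and 371 CPM, 0.72) and LCP2, which encodes SLP-76 (189 and 110 CPM, 0.78), and the GADS gene GRAP2 (74.0 and 42.1 CPM, 0.82) moved by similar amounts. SKAP1 (0.80) and GRB2 (0.64) were also past the fold, and FYB1, the integrin-linked adaptor ADAP, was not (405 and 346 CPM, 0.23).

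The enzymes and relays downstream of the scaffolds did not move together. VAV1, a guanine nucleotide exchange factor, was at 44.5 and 25.2 CPM (0.82), and RASGRP1, the diacylglycerol-dependent RAS activator, at 37.4 and 21.9 CPM (0.77). The other 5 lay within the fold: PLCG1 at -0.17, the RAS activator SOS1 at -0.29, PRKCQ at -0.03, BCL10 at 0.08 and MALT1 at -0.47. On these 2 groups the diacylglycerol-fed RAS activator was thus higher by CPM and the GRB2-bound one was not. With ratios taken relative to the median of all genes, RASGRP1 fell within the fold, and SOS1 and MALT1 were past it downward.

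Of the phosphatases, DUSP2 was lower in the GZMB group (-2.80) and the others were higher. Relative to the median of all genes, PTPRC, PTPN6 and PTPN2 fell within the fold. PTPRC (CD45) was at 1166 and 739 CPM (0.66). PTPN22, a phosphatase of active LCK and ZAP70, had 76.5 and 24.0 CPM (1.67 [1.42, 1.92]), and PTPN7, a MAP kinase phosphatase, 20.4 and 8.73 CPM (1.23 [0.80, 1.67]). PTPN6 (109 and 72.1 CPM, 0.60) and PTPN2 (110 and 77.4 CPM, 0.50) were just past the fold. Among the inhibitors, UBASH3A (108 and 48.1 CPM, 1.16), the ubiquitin ligase gene CBLB (164 and 77.2 CPM, 1.09), CSK, the kinase that locks LCK (181 and 99.1 CPM, 0.87), and DGKZ (106 and 71.2 CPM, 0.57) were higher. Their relatives UBASH3B (0.07) and CBL (0.23) were within the fold. Lower in the GZMB group were DGKA, the other diacylglycerol kinase, at 50.4 and 171 CPM (-1.76 [-1.92, -1.60]), and PAG1, the membrane anchor of CSK, at 28.7 and 86.2 CPM (-1.59 [-1.81, -1.37]).

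All 3 surface receptors were past the fold upward (all genes: 35.6%). CD6 stood at 432 and 147 CPM (1.55 [1.45, 1.65]), CD5 at 164 and 61.4 CPM (1.42 [1.26, 1.58]) and CD2, an adhesion receptor, at 351 and 174 CPM (1.02). CD5 (13107650 to 13136418) and CD6 (13214623 to 13264563) both lie on the minus strand of chromosome 14 in Mmul_10. Of the NFAT genes, NFATC2 (142 and 73.4 CPM, 0.95) and NFATC3 (115 and 68.8 CPM, 0.74) were higher and NFATC1 was lower (24.0 and 50.8 CPM, -1.08 [-1.34, -0.83]). GRB2, CBLB, MALT1, SKAP1 and NFATC3 each overlap an uncharacterised gene on the same strand in the RefSeq annotation, so their counts are uncertain.

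**Figure D2:**
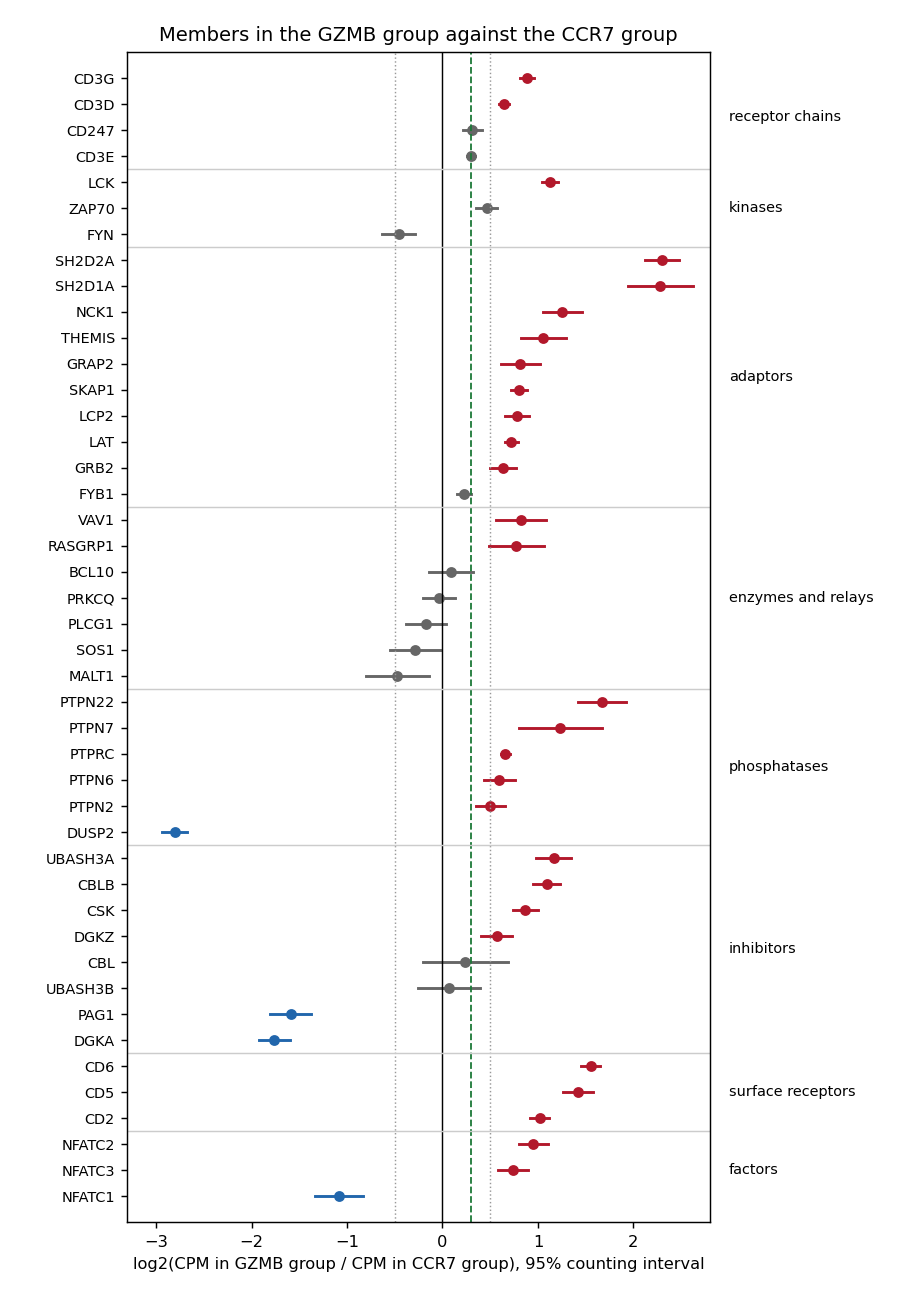
Points give the log2 ratio of CPM in the GZMB group to CPM in the CCR7 group for each of the 44 members, ordered by role, with 95% counting intervals; dotted lines mark 0.5 in either direction and the dashed line the median of all genes tested (0.30). SH2D2A and SH2D1A lie farthest right and DUSP2, DGKA, PAG1 and NFATC1 lie left of the dotted line.

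Shares of cells with a UMI put the GZMB group above the CCR7 group for SH2D2A and CD6 and below it for DGKA, as the CPM did. SH2D2A was found in 47.4% of GZMB group cells, 16.8% of CCR7 group cells and 1.69% of B gene cells, and in 32.7% and 8.70% of the first 2 groups after each cell was thinned to 2000 UMIs. CD6 was found in 72.0%, 43.1% and 2.54% of cells (56.0% and 24.3% thinned). DGKA ran the other way, with 15.0% of GZMB group cells, 53.0% of CCR7 group cells and 17.8% of B gene cells (8.27%, 28.7% and 6.42% thinned). For DGKA the GZMB group lay near the B gene cells: its thinned share is within the B gene cells' interval (2.62% to 12.8%), and its 50.4 CPM compares with 42.0 [26.9, 62.5] CPM there. Median depths were 3221 UMIs in the GZMB group, 4282.5 in the CCR7 group and 4397 in B gene cells. Thinning left out 107, 55 and 9 shallower cells of the 3 groups.

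The regions just before the start of 3 genes with wide ratios are shown for reference, as 250 bases read 5' to 3' on the gene's strand from the RefSeq annotation of Mmul_10, with motif matches in capitals. SH2D1A (chromosome X, 120594638 to 120619034, plus strand), DGKA (chromosome 11, 55486216 to 55508747, plus strand) and DUSP2 (chromosome 13, 568411 to 571042, minus strand) lie next to chrX:120594388-120594637, chr11:55485966-55486215 and chr13:571043-571292.
SH2D1A: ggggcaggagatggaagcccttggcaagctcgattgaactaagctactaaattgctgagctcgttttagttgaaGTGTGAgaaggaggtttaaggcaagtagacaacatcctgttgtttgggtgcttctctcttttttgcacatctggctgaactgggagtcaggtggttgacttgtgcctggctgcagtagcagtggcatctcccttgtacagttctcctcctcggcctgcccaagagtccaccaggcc
DGKA: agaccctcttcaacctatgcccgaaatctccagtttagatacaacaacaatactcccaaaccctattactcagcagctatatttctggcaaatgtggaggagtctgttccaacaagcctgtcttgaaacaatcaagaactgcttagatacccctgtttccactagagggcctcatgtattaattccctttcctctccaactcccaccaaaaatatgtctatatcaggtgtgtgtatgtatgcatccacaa
DUSP2: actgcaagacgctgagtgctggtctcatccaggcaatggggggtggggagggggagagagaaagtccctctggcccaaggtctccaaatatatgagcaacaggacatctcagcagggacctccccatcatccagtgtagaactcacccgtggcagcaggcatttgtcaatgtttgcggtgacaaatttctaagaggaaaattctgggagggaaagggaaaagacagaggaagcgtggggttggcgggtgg
The searched motifs were TGTGGT (RUNX), TCACAC (T-box), CTTTGA (TCF/LEF) and CCGGAAG (ETS), on both strands. The SH2D1A window holds the T-box letters on the other strand 176 bases before the start, and the other 2 windows hold none of these. Among the 44 listed genes in that annotation (TXK included, ZAP70 not matched by symbol) the T-box letters were found before 6 genes (13.6%, against 10.5% of 21102 promoters), the RUNX letters before 3 (6.82% against 11.2%), the TCF/LEF letters before 3 (6.82% against 10.7%) and the ETS letters before 1 (2.27% against 7.0%).

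Because related members went opposite ways, the quotient of their UMIs within a group was compared across groups; the pairs were chosen after the values were seen, and a quotient is read only from group to group. There were 2.89 [2.63, 3.18] LCK UMIs per FYN UMI in the CCR7 group and 8.68 [7.93, 9.52] in the GZMB group. The TRAV10 group was lowest on this quotient at 1.89 [1.39, 2.60]. DGKZ over DGKA was 0.417 [0.375, 0.463] in the CCR7 group and 2.09 [1.86, 2.35] in the GZMB group. The CCR9 group was lowest at 0.303. NFATC2 over NFATC1 was 1.45 and 5.92 [5.10, 6.90], with the FOXP3 group lowest at 0.643 [0.245, 1.59]. CSK over its anchor PAG1 was 1.15 and 6.30 [5.50, 7.24], with the CCR9 group at 1.03. The GZMB group had the highest value of all marker groups on these 4 quotients, though its interval met that of the CXCL13 group for LCK over FYN and CSK over PAG1, and those of the EOMES and CCR9 groups for NFATC2 over NFATC1. Smaller changes were seen for UBASH3A over UBASH3B (2.37 and 5.06) and CBLB over CBL (7.30 and 13.2).

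**Figure D3:**
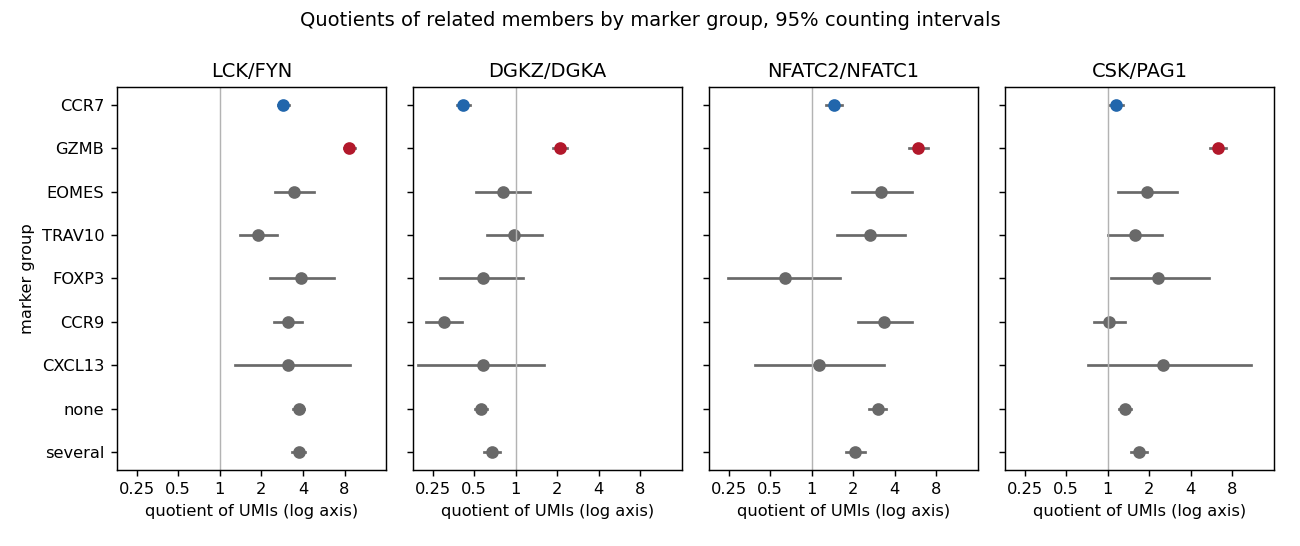
Each panel gives the quotient of the UMIs of 2 related members (log axis) in each marker group and in cells with none or several markers, with 95% counting intervals. The GZMB group is farthest right in all 4 panels, at 8.68, 2.09, 5.92 and 6.30, and the CCR7 group lies at 2.89, 0.417, 1.45 and 1.15.

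Among all CD3E+ cells, levels were followed over bins of raw GZMB UMIs (0, 1 to 2, 3 to 9, 10 to 29, and 30 or more, with 4038, 503, 1115, 1512 and 143 cells). CD3D was at 757, 864, 962, 1098 and 1309 CPM from the lowest to the highest bin. LCK was at 279, 383, 446, 530 and 575 CPM, and CD6 at 154, 238, 336, 427 and 462 CPM. By value these 3 genes thus increased over every bin, though for LCK and CD6 the intervals of the 2 highest bins met. SH2D2A, by contrast, was at 63.9 CPM with no GZMB UMI, at 156 CPM with 1 or 2, and between 186 and 197 CPM in the 3 higher bins. DGKA was at 160, 102, 68.1, 56.1 and 60.4 CPM. PAG1 was at 88.7 and 87.5 CPM in the 2 lowest bins and at 39.8, 32.3 and 36.8 CPM above them. FYN was at 86.4 CPM in the lowest bin and 66.9 CPM in the highest. Ribosomal genes took 31.4% of UMIs in the lowest GZMB bin and 20.2% in the highest, and their part was not tested. The same bins were not taken over all genes. Over CCR7 UMIs the step came at the first UMI: SH2D2A was at 150 CPM with 0 and at 55, 51 and 53 CPM with 1, 2 and 3 or more, and CD6 at 291, 157, 170 and 165 CPM.

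A further list of 60 genes of the same pathway, all measured, leaned the same way. Like the members, these genes were chosen with earlier results of these data known, so the list is not independent support. In the GZMB group 33 of the 60 were past the fold upward and 5 downward relative to the CCR7 group (all genes: 35.6% and 11.6%). All genes tested thus leaned upward too. The median of the 60 was 0.55, above that of all genes tested. Higher were PTPRJ, a receptor phosphatase (36.7 and 8.30 CPM, 2.14), SLA2, an adaptor that restrains receptor signalling (119 and 27.2 CPM, 2.13), the calcium channel gene ORAI1 (56.4 and 17.5 CPM, 1.69), the calcineurin subunit PPP3CA (95.7 and 30.9 CPM, 1.63), PIK3R1 (146 and 57.2 CPM, 1.36) and RAC2 (1254 and 519 CPM, 1.27). Lower were the costimulatory receptor CD28 (9.87 and 79.5 CPM, -3.01), NFKB1 (9.05 and 26.9 CPM, -1.57), CD8B (9.40 and 20.3 CPM, -1.11), ITPR2 (-0.70) and PIK3CD (-0.62). Of 14 genes that respond early to stimulation or handling, 11 were measured. They summed to 5287 CPM in the GZMB group and 7985 CPM in the CCR7 group. Of these, 1 was past the fold upward (NR4A2, 0.58) and 8 downward (all genes: 35.6% and 11.6%). The lower ones included EGR1 (-1.85), JUNB (-1.40) and JUN (-1.30). The part of early response genes in the members' values was not tested.

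DUSP2 had the lowest ratio of all members, at 64.2 CPM in the GZMB group and 448 CPM in the CCR7 group (-2.80 [-2.94, -2.67]), and it was also the member that moved most with B cell genes. B gene cells held a median of 14.5 DUSP2 UMIs per cell and up to 198. Among CD3E+ cells, the 502 (6.87%) with any UMI of MS4A1, CD79A or CD79B held 4515 of the 8866 DUSP2 UMIs, or 1467 CPM, against 161 CPM in the rest. The 69 CD3E+ cells with at least 10 DUSP2 UMIs held 4062 of them, and 65 of those cells had a B cell gene UMI. Without the cells that held one, DUSP2 stood at 248 CPM in the CCR7 group and 54.1 CPM in the GZMB group, and the ratio was -2.20. The cells with several markers went from 555 to 181 CPM. The EOMES (289 to 284 CPM), TRAV10 (325 to 314 CPM), FOXP3 (235 to 255 CPM) and CXCL13 (340 to 323 CPM) groups changed little. Against the other CD3E+ cells DUSP2 was then past the fold upward in the EOMES (0.83, from -0.03), TRAV10 (0.98, from 0.15) and FOXP3 (0.67, from -0.33) groups.

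**Figure D4:**
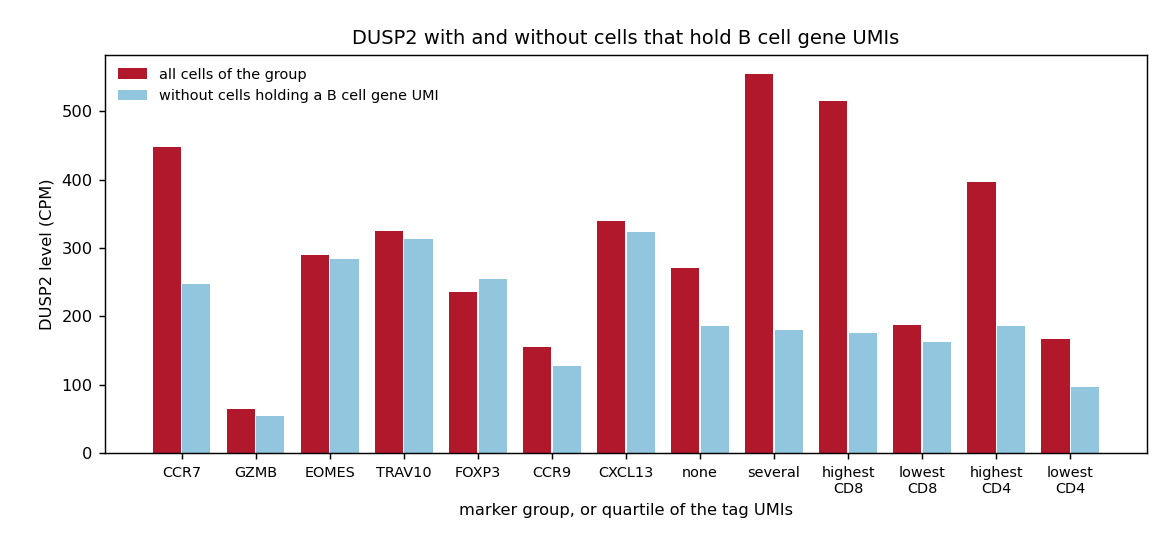
Bars give the DUSP2 level (CPM) in each marker group and in the highest and lowest quartiles of each tag, for all cells of the group (red) and without cells holding an MS4A1, CD79A or CD79B UMI (blue). The highest CD8 quartile goes from 515 to 176 CPM and the CCR7 group from 448 to 248 CPM, while the GZMB group is lowest in both sets, at 64.2 and 54.1 CPM.

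Each marker group was then set against all other CD3E+ cells, so these comparisons share most of their cells. In the CCR7 group 3 members were past the fold upward and 18 downward (all genes: 5.38% and 21.4%), with a median of -0.44 against -0.20 for all genes. The higher members were DUSP2 (0.85), DGKA (0.69) and NFATC1 (0.54). The lower ones ran from SH2D2A (-1.71), SH2D1A (-1.58), PTPN22 (-1.12) and PTPN7 (-1.08) through CD6, CD5, NCK1, CBLB, LCK, CD2, NFATC2, UBASH3A, LCP2, THEMIS, GRAP2, CSK and SKAP1 to VAV1 (-0.52). In the GZMB group 22 were upward and 5 downward (all genes: 23.5% and 12.0%), with a median of 0.51 against 0.19, and the 5 were DUSP2 (-2.59), PAG1 (-1.58), DGKA (-1.56), NFATC1 (-0.89) and FYN (-0.53). The 22 ran from SH2D1A (1.59), SH2D2A (1.38), CD6 (1.33), PTPN22 and CD5 (1.08) through UBASH3A, THEMIS, LCK, NCK1, CD3G, CBLB, CD2, CSK, VAV1, NFATC2, RASGRP1, GRAP2, LAT, PTPRC, SKAP1 and NFATC3 to CD3D (0.52). Relative to the median of all genes the GZMB counts were 10 and 7, and the CCR7 counts 4 and 10. The shares of all genes given above are for ratios that were not centred, so they are no background for these counts.

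The EOMES group, whose 3-gene list of Tr1-like cells summed to 2236 CPM (403 CPM from EOMES, which chose the cells) against 274 CPM in all CD3E+ cells, differed little. Of 33 members with enough UMIs, 3 were past the fold upward and 2 downward (all genes: 4.50% and 6.15%), with a median of 0.05 against 0.01. The higher ones were CBLB at 191 CPM against 120 CPM in the other cells (0.68 [0.35, 0.99]), NFATC2 at 166 against 108 CPM (0.63) and FYN at 116 against 80.4 CPM (0.53). SH2D2A was lower at 72.9 against 116 CPM (-0.67), and GRAP2 was lower by value (-0.56) with an interval that spans 0. With cells positive for further markers included (356 cells), 3 of 43 members were past the fold (all genes: 8.08%), and of the earlier ones NFATC2 was among them (0.62).

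Against the other CD3E+ cells, the TRAV10 group combined a higher FYN and SH2D2A with a lower CD6. TRAV10 encodes a receptor alpha variable segment; the 3-gene innate-like list (ZBTB16, KLRB1 and MAP3K8) summed to 976 CPM there and 191 CPM in all CD3E+ cells, and the NK list to 2326 CPM. Of 32 members, 3 were past the fold upward and 6 downward (all genes: 3.05% and 10.7%), with a median of -0.15 against -0.06. FYN was at 152 CPM against 79.9 CPM (0.93 [0.55, 1.28]), SH2D2A at 211 against 114 CPM (0.88) and CBLB at 180 against 120 CPM (0.59). CD6 was at 74.9 CPM against 248 CPM (-1.73 [-2.28, -1.23]), CD2 at 150 against 261 CPM (-0.80), CD5 at 60.8 against 103 CPM (-0.75) and CD3G at 281 against 421 CPM (-0.58). UBASH3A (-0.93) and FYB1 (-0.51) were lower too. In this group the level of SH2D2A was close to that of the GZMB group (207 CPM) while that of CD6 was the lowest of the 7 groups. CD5 and CD2 were also lowest here by value, but the CCR7 group stood near, at 61.4 and 174 CPM. With 247 overlapping cells 8 of 42 members were past the fold (all genes: 8.51%), and FYN (0.71), SH2D2A (0.67), UBASH3A (-0.70) and CD6 (-0.67) were in both sets.

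The 42 cells of the FOXP3 group had 19 members with enough UMIs. Their 3-gene Treg-like list summed to 662 CPM, 410 CPM of it from FOXP3, which chose the cells, against 27.8 CPM in all CD3E+ cells. The cycling genes MKI67 and TOP2A summed to 202 CPM there and 15.4 CPM in all CD3E+ cells, and their part in the members' values was not tested. CD247 (323 against 201 CPM, 0.68), LCP2 (0.61), LAT (705 against 470 CPM, 0.58) and CD2 (372 against 258 CPM, 0.53) were past the fold upward, and SH2D2A (-1.08), CD6 (-0.79) and CBLB (-0.66) downward (all genes: 8.55% and 13.0%), and the median was 0.09 against 0.00. CBLB was lower by value, from 14 UMIs, with an interval that spans 0 [-1.53, 0.09]. In the 162 overlapping cells 14 of 40 members were past the fold (all genes: 21.5%). Those shared by both sets were the lower ones, with SH2D2A at -0.77, CBLB at -0.71 and CD6 at -0.80, while NFATC1 was higher among the overlapping cells (0.99) and LCP2 and CD2 were not (-0.0043 and -0.011).

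In the CCR9 group, named for a gut-homing receptor, 3 of 42 members were past the fold upward and 13 downward (all genes: 3.89% and 15.2%), with a median of -0.35 against -0.09. SOS1 was at 55.9 CPM against 35.4 CPM in the other cells (0.66 [0.27, 1.03]). PAG1 was at 103 against 68.3 CPM (0.59, and -0.050 in thinned cells) and DGKA at 173 against 119 CPM (0.54). The lowest ratio was that of SH2D1A, at 8.74 against 32.3 CPM (-1.89). PTPRC (611 against 910 CPM, -0.57), PTPN22 (-0.87), DGKZ (-0.72), NFATC1 (-0.73), CD6 (-0.71) and CD5 (-0.64) were also lower, as were DUSP2 (-0.95), UBASH3B (-0.87), SH2D2A (-0.75), GRAP2 (-0.73), NFATC3 (-0.56) and NCK1 (-0.51). The other CD3E+ cells included the GZMB group. In the CCR7 group several of these members stood near the CCR9 levels. DGKA was at 171 and PAG1 at 86.2 CPM there, CD6 at 147 (CCR9 group: 152), CD5 at 61.4 (66.4) and PTPN22 at 24.0 CPM (25.3). Among those further away were SOS1 at 35.6, PTPRC at 739, NFATC1 at 50.8 and DUSP2 at 448 CPM in the CCR7 group. With 479 overlapping cells 10 of 44 were past the fold (all genes: 15.6%), of which 7 were in both sets: SOS1 (0.77), SH2D1A, SH2D2A, GRAP2, PTPN22, CD5 and CD6. The 3-gene list headed by CCR9 summed to 756 CPM there, 392 CPM of it from CCR9 itself, and to 184 CPM in all CD3E+ cells. The 20 cells of the CXCL13 group, whose 5-gene list of follicular helper genes summed to 1949 CPM (1624 CPM from CXCL13, which chose the cells) against 181 CPM, left 8 members to compare. LAT was at 882 CPM against 471 CPM (0.91 [0.50, 1.28]), FYB1 at 634 against 365 CPM (0.80), and CD3E, whose UMIs chose the cells, at 0.51, with none lower (2 of 7 without CD3E; all genes: 10.4% and 13.0%), and the median was 0.40 against -0.08. In the 73 overlapping cells 7 of 29 were past the fold (all genes: 20.4%), with LAT (1.03) and FYB1 (0.58) in both sets.

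The antibody tags gave a second axis. The CD4 tag had a median of 387 UMIs per CD3E+ cell and the CD8 tag 342. Taking the level that 90% of B gene cells do not exceed (191 CD4 and 339.1 CD8 tag UMIs) as the limit, above it lay both tags in 3498 cells, the CD4 tag alone in 3364, the CD8 tag alone in 182 and neither in 267. The B gene cells came from the same sort, and the CD8 limit lies near the CD3E+ median of 342. A cell below a limit therefore need not lack that protein, and the study reported high CD4 and CD8 tags in all clusters. Both tags were above the limit in 44.8% of the GZMB group and 51.6% of the CCR7 group, and the CD4 tag alone in 46.2% and 44.6%. LCK stood at 346 CPM with both tags, 385 with the CD4 tag alone and 444 with the CD8 tag alone, and CD3G at 394, 441 and 548 CPM. Other members were lowest by value with the CD8 tag alone, among them LAT (459, 492 and 395 CPM), FYB1 (353, 385 and 304 CPM), DGKA (128, 114 and 84.1 CPM) and PAG1 (68.9, 72.3 and 48.8 CPM). For each of these the interval of the cells with the CD8 tag alone met that of another tag class. The cytotoxic list stood at 1289, 1430 and 2655 CPM, and the NK list stood at 3366 CPM in the cells with the CD8 tag alone. In the cells with neither tag LCK was at 392 CPM, and red blood cell genes summed to 8710 CPM.

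Between the highest and lowest quartile of the CD8 tag (1831 and 1840 cells, median 4594 and 3364.5 UMIs) few members were past the fold. DUSP2 (515 and 188 CPM, 1.45) and SOS1 (38.8 and 26.4 CPM, 0.55 [0.29, 0.82]) were past the fold upward and none was downward (all genes: 6.10% and 2.90%), with a median of -0.06 against 0.00 for all genes. Without cells holding B cell gene UMIs the DUSP2 ratio was 0.10. Red blood cell genes summed to 977 CPM in the lowest CD8 quartile and 37.3 CPM in the highest, and their part was not tested. By deciles of the CD8 tag, SOS1 was at 18.8 CPM in the lowest decile, 31.7 in the next and 38.8 in the highest. Several members peaked in the middle: CD6 was at 175 CPM in the lowest decile, 290 in the sixth and 198 in the highest, and SH2D2A at 79.6, 137 and 86.2 CPM.

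Along the CD4 tag more members were past the fold. From the highest to the lowest quartile (median 4867 and 3065 UMIs), 4 were past the fold upward and 11 downward (all genes: 7.20% and 11.4%), with a median of -0.26 against -0.12. DGKA (137 and 86.5 CPM, 0.66), PAG1 (79.0 and 53.0 CPM, 0.58), SOS1 (42.6 and 28.1 CPM, 0.60) and DUSP2 (397 and 167 CPM, 1.25, and 0.94 without cells holding B cell gene UMIs) were higher in cells with more CD4 tag. Lower were SH2D1A (21.3 and 46.3 CPM, -1.12), CD5 (75.2 and 140.5 CPM, -0.90), CD6 (197 and 359 CPM, -0.86), CD3G (348 and 541 CPM, -0.64), LCK (315 and 448 CPM, -0.51) and, from -0.68 to -0.51, PTPN22, SH2D2A, NCK1, THEMIS, GRAP2 and UBASH3A. With the tag instead cut at the limit from B gene cells, 4 members were past the fold: SOS1 upward (0.61) and PTPN22 (-0.69), SH2D1A (-0.60) and UBASH3B (-0.68) downward. CD6 (-0.24), CD5 (-0.31), CD3G (-0.33), LCK (-0.20), DGKA (0.45) and PAG1 (0.39) were then within it, and DUSP2 (-0.31) and SH2D2A (0.06) changed sign. The low side of this cut held only the 182 cells with the CD8 tag alone and the 267 with neither tag. SOS1 had 31 UMIs there and UBASH3B 41. No share of all genes is given for this cut, so its count is not set against that of the quartiles. The GZMB group made up 59.1% of the lowest CD4 quartile and 14.6% of the highest, and the CCR7 group 12.5% and 25.5%. Red blood cell genes summed to 1139 CPM in the lowest CD4 quartile and 23.6 CPM in the highest, and their part was not tested.

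**Figure D5:**
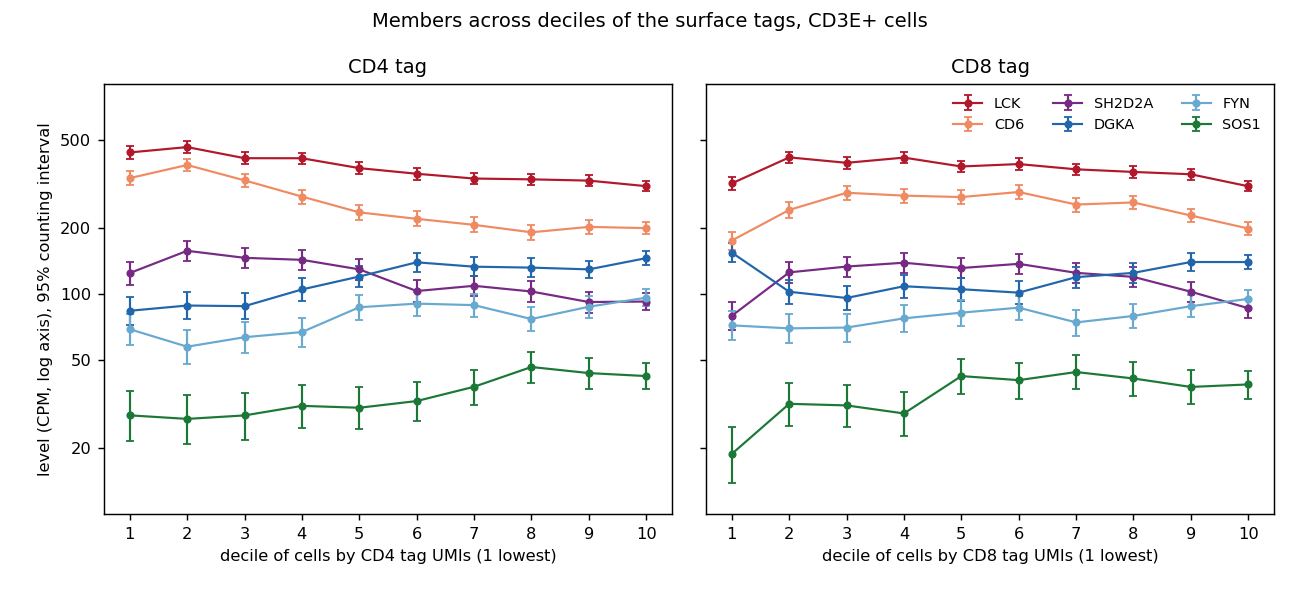
Lines give the level (CPM, log axis) of 6 members in deciles of CD3E+ cells by CD4 tag UMIs (left) and CD8 tag UMIs (right), with 95% counting intervals. From the lowest to the highest CD4 decile, CD6 goes from 336 to 199 CPM and DGKA from 83.9 to 145 CPM, while along the CD8 tag CD6 and SH2D2A are low at both ends.

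The tags were also compared inside the GZMB and CCR7 groups, each cut at its own quartiles. Along the CD4 tag inside the GZMB group, 4 of 44 members were past the fold, all upward (all genes in either direction: 11.0%). FYN was at 73.4 CPM in the highest quartile and 48.7 CPM in the lowest (0.59 [0.22, 0.97]), PAG1 at 38.4 and 21.0 CPM (0.87), DGKA at 67.3 and 43.7 CPM (0.62, and 0.37 in thinned cells) and DUSP2 at 84.7 and 44.3 CPM (0.94). GZMB itself was at 3071 and 4322 CPM in these quartiles, so the cut was not free of GZMB level. MS4A1, CD79A and CD79B summed to 41.6 and 23.8 CPM in the same quartiles, and the DUSP2 ratio given includes the cells holding them. LCK, CD6, CD5 and CD3G were within the fold there. Along the CD8 tag inside the GZMB group, DGKA was past it (0.59, and 0.12 in thinned cells; all genes: 8.67%).

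Inside the CCR7 group, 6 of 41 members were past the fold along the CD4 tag (all genes: 16.9%). FYN was at 99.2 and 58.7 CPM (0.76), SOS1 at 39.0 and 23.8 CPM (0.71), SH2D2A at 0.55 (0.05 in thinned cells) and DUSP2 at 1.21, and THEMIS (-0.83) and GRAP2 (-0.64) were lower. Along the CD8 tag 8 of 41 were past it (all genes: 18.1%): SH2D2A at 48.1 and 24.6 CPM from 108 and 35 UMIs (0.97 [0.40, 1.56]), SOS1 at 38.7 and 21.1 CPM (0.88), FYN at 104 and 64.7 CPM (0.68), GRAP2 at 34.3 and 60.5 CPM (-0.82), THEMIS (-0.79), NCK1 (-0.58), PTPN6 (0.52) and DUSP2 (1.76). Both counts lay near the shares of all genes. By value SOS1 and FYN were higher, and THEMIS and GRAP2 lower, along both tags in CCR7 cells. Without cells holding B cell gene UMIs, DUSP2 stood at 0.09 and PTPN6 at 0.15 along the CD8 tag, and DUSP2 at 0.01 along the CD4 tag. CCR7 was at 344 CPM in the highest CD8 quartile of this group and 554 CPM in the lowest, with median depths of 5011 and 3587 UMIs. In the highest and lowest CD4 quartiles it was at 330 and 576 CPM, with median depths of 5190 and 3499 UMIs. MS4A1, CD79A and CD79B summed to 159 and 34.9 CPM in these CD4 quartiles. The part of these differences in the members' values was not tested.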

How the data were processed

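Raw counts are deposited. The authors made them with Cell Ranger 3.1.0 (STAR 2.5.1b, genome Mmul_10) as whole-number UMI counts per gene and per antibody tag for 7923 barcodes of 1 matrix, with 32297887 gene UMIs; barcodes were unique (0 duplicated), and no columns of other series were used. Following the study's filters (Seurat 3.1.3 there), genes found in 3 or more barcodes were kept, and cells having between 200 and 4000 genes and a mitochondrial share of no more than 20%; 675 features without a symbol were given one from a gene name table. Python 3.11.15 ran matplotlib 3.10.9, scanpy 1.11.5 (Scrublet), pandas 2.3.3, scipy 1.17.1 and numpy 2.4.6. UMIs were summed per group, with exact Poisson intervals for levels and exact binomial intervals for ratios; the script was tested on simulated data. Members and lists were chosen with earlier results of these data known. Scrublet marked 0 of 7601 cells and was judged not to have worked, so doublets were not removed; an alternative leaves out the 5% of cells with the highest scores. All matched members are named, with their ratios where past the fold in the GZMB against CCR7 comparison and by name and range elsewhere. Alternatives cover marker limits, overlapping groups, thinning, scaling, filters and tag limits.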

Additional observations from a re-analysis of the deposited data

Results flagged for a closer look

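The SH2D2A ratio between CD8 tag quartiles was 0.97 [0.40, 1.56] inside the CCR7 group and -0.25 [-0.45, -0.06] inside the GZMB group. It was picked out because the same contrast went opposite ways in the 2 groups, and the difference was not tested. The highest and lowest quartiles of the CCR7 group had median depths of 5011 and 3587 UMIs. MS4A1, CD79A and CD79B summed to 204 and 30.2 CPM in them, and the part of depth and of these genes was not tested.

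DUSP2 stood at 6338 CPM in B gene cells, which the comparisons leave out; it was picked out as a member with a signal there above its 294 CPM in CD3E+ cells.

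CD3D was at 585 CPM in the 166 kept cells with no UMI of CD3E, MS4A1, CD79A or CD79B (median 1260.5 UMIs), also outside the comparisons; it was picked out because this lies above the 66.5 CPM of B gene cells. Of these cells 114 (68.7%, exact binomial interval 61.0% to 75.6%) had a UMI of CD3D, CD3G or CD247, against 32 of 118 B gene cells (27.1%; median 4397 UMIs). In the 166 cells the monocyte list summed to 1868 CPM and the 8-gene B cell list to 2831 CPM. Of that B cell list 5 genes were at 0, among them MS4A1, CD79A and CD79B, whose absence chose the cells.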

How the results depend on the processing

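No paired analysis was possible because the 2 libraries are 1 sample and no result comes from a test. Of 154 counts of members past the fold under the alternatives, 130 stayed within 1.5 times of the reported one. Except where given above, the counts below stand without the share of all genes at the same setting. They show how a count moved, not whether members differed from all genes. The EOMES count of 5 was 3 with overlapping groups, with the other markers from 2 UMIs and with 10 added to the CPM. The FOXP3 count of 7 was 14 with overlapping groups and 15 with these and no cells holding B cell gene UMIs, 3 with GZMB from 1 UMI, 4 with other markers from 2 UMIs or as a mean over cells, 1 after thinning and 18 with no filter and 10 added. The CXCL13 count of 3 was 7 with overlapping groups, with and without cells holding B cell gene UMIs, 5 from 2 UMIs, 1 after thinning and 19 with no filter and 10 added. The CCR9 count of 16 was 10 with overlapping groups. The GZMB count of 27 against other cells was 17 without ribosomal and mitochondrial genes and 17 centred on the median of all genes. The CD8 tag count of 2 was 1 with 10 added, with or without the filter, without cells holding B cell gene UMIs and with tags cut at the B gene cells, and the CD4 tag count of 15 was 4 with the last of these. Inside the GZMB group the CD8 tag count of 1 was 0 without the highest doublet scores.

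Signs turned for LCP2 (-0.0043) and CD2 (-0.011) in the FOXP3 group with overlapping groups, for CD2 also from 2 UMIs (-0.084), after thinning (-0.092) and with overlapping groups without cells holding B cell gene UMIs (-0.052). They turned for DUSP2 in the CCR9 group with overlapping groups (0.29), for PAG1 there after thinning (-0.050), and along the CD4 tag cut at the B gene cells for SH2D2A (0.059) and DUSP2 (-0.31). The cause was not tested. Of 5369 member ratios, 4817 moved by less than their counting interval. All values rest on 1 animal, and counting intervals leave out library and sorting error. Groups set by 1 UMI miss cells whose marker was not captured, and groups of 20 and 42 cells resolve only the more abundant members.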
